A study of Mus musculus with 9 samples.

Results

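The genes described here encode the proteins of the cytosolic ribosome. They were taken from the deposited expression table by name, as Rpl or Rps followed by a number and at most a short suffix, together with Rplp0, Rplp1, Rplp2 and Rpsa. The 10 kinases whose names begin with Rps6k and the 30 listed pseudogenes with -ps in their names were left out, and proteins of the mitochondrial ribosome have other names. The rule gave 84 of the 15228 genes in the table, 50 of the large and 34 of the small ribosomal subunit, and used no measured level. RGCs, the neurons whose axons form the optic nerve, had been sorted by flow cytometry from the retinas of WT C57BL/6J mice as CD90.2+, CD48neg, CD15neg, CD57neg cells. The 3 groups were uninjured retinas (Ctrl), retinas 3 d after optic nerve crush with PBS (ONC), and retinas 3 d after crush with 100 μM of TPEN, a membrane-permeant chelator of zinc (TPEN), with 3 RNA-seq libraries each. Crush surgery was done on mice of 6 to 8 weeks, and the eye received PBS or TPEN immediately afterwards. The labels name no injection in Ctrl, so crush and injection cannot be told apart in either comparison with Ctrl, while ONC and TPEN shared both.

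Each ribosome is built from ribosomal RNA and about one copy of every ribosomal protein, so the genes of these proteins are usually expressed together. Most of their mRNAs begin with a cytosine followed by a run of pyrimidines, the 5′ terminal oligopyrimidine (TOP) motif, through which mTORC1 and LARP1 control how well they are translated. In injured RGCs, mTOR activity and protein synthesis are known to bear on survival and axon regrowth. RNA-seq measures the amount of these mRNAs and not the rate at which they are translated.

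The libraries held 19946993 to 23109754 reads, and the 84 genes had between 8 and 13195 reads in a library, all 84 passing the filter of a mean of 0.5 RPKM (reads normalised to exon length and library size). The sorted cells were not pure by their markers. The 10 rod markers summed to 20100 to 20721 RPKM in Ctrl, 17763 to 17851 in ONC and 18916 to 18982 in TPEN, against 364 to 374, 373 to 395 and 290.1 to 304 RPKM for the RGC markers. Of 12 RGC markers, Pou4f2 and Pou4f3 were not listed and 7 passed the filter. In bulk libraries, fewer cells of a type and less RNA per cell cannot be told apart, so the levels below are those of the sorted mixture. Whether the 3 libraries of each group stem from different mice is not stated, so p-values measure only the spread between these libraries.

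Runs of pyrimidines near the start site were found in many of these genes. RefSeq start sites on GRCm38.p6, the build of the deposited coordinates, were available for 61 of the 84 genes. A run of at least 8 C or T within 20 bases on either side of a start site was found in 30 of the 61 (49.2%), against 18.4% of all 27025 genes with a start site and 18.8% of the 9160 of them that were tested here. A TOP motif must begin at the first base of the mRNA, which this search did not require, so a run counted here is not a call of that motif. The windows below run 5′ to 3′ on the coding strand, from 15 bases before the start site through the first 15 bases of the transcript, with the run in capitals. They show 7 genes that have the run and 4 that do not, all of them described further below with their levels. In Rpl4 the run ends before the start site and is not part of the transcript, and in the others that have it the run spans the start site.
Rpl35 (chr2:39005117-39005146, minus strand): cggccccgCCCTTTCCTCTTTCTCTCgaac
Rps24 (chr14:24490663-24490692, plus strand): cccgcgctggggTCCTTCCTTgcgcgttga
Rps27 (chr3:90213634-90213663, minus strand): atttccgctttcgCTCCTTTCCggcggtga
Rplp2 (chr7:141447636-141447665, plus strand): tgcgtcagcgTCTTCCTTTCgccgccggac
Rps10 (chr17:27635230-27635259, minus strand): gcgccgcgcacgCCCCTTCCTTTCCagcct
Rps6 (chr4:86857353-86857382, minus strand): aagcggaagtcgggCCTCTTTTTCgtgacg
Rpl4 (chr9:64173372-64173401, plus strand): TTCCTTTTCCTgtgggagcagccgggtaga
Rpl10 (chrX:74270801-74270830, plus strand): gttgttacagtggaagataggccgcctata
Rpl12 (chr2:32961697-32961726, plus strand): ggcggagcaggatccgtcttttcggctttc
Rpl7l1 (chr17:46782642-46782671, minus strand): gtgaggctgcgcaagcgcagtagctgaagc
Rpsa (chr9:120127751-120127780, plus strand): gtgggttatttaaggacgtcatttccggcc
The run was present in 15 of the 27 of these genes that rose in ONC/Ctrl and in 15 of the 34 that did not pass the test. Rpl10, Rpl12 and Rpl7l1 lack it in these windows and were among the 8 genes with the largest rise. In the 300 bases from 250 before to 50 after the start, searched on both strands, the ETS core CCGGAAG was found in 41.0% of the 61 genes, 9.93% of all genes and 21.1% of the tested genes, and in 13 of the 27 that rose in ONC/Ctrl and 12 of the other 34. The YY1 core AAGATGG was found in 16.4%, 7.28% and 8.79%, and in 4 of the 27 and 6 of the 34. The GC box GGGCGG was found in 63.9%, 38.2% and 68.9%, and in 17 and 22. The TATA box TATAAA was found in 11.5%, 15.7% and 8.30%, and in 0 and 7. The E-box CACGTG was found in 9.84%, 8.09% and 11.8%, and in 5 and 1. The splits by call were not tested. These matches describe letters in a window and were not tested for binding.

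Levels of the ribosomal protein genes spanned from 1.10 to 429 RPKM (means over 9 libraries). The ribosome holds its core proteins in about equal number, but the low end of this range includes minor paralogs and genes without a GENCODE protein-coding transcript. By mean level they ranked from 69 to 11899 among the 15228 genes, with a median rank of 1294. In the large subunit the highest were Rpl19 (429 RPKM), Rplp1 (391) and Rpl14 (323), and the lowest Rpl22l1 (1.90), Rpl6l (2.65) and Rpl35a (3.65). In the small subunit the highest were Rps24 (360.1 RPKM), Rps23 (205) and Rps15 (195), and the lowest Rps27l (1.10), Rps3a2 (2.70) and Rps28 (3.87). Rps27l and Rpl22l1 are paralogs of Rps27 and Rpl22, and Rpl6l, Rps3a2 and Rps4l, taken by name, had no GENCODE protein-coding transcript. Rpl35a and Rps28 have no such standing and encode core proteins. The median gene stood at 40.0 RPKM in the large and 23.5 RPKM in the small subunit. These levels are per length of all listed exons joined, from 404 to 6270 bases with a median of 1660.5, while the coding sequences run from 138 to 1257 bases with a median of 456. Across the 81 genes with a GENCODE protein-coding transcript, the level had a Spearman rho of -0.35 with exon length and 0.34 with coding length, which is a description over genes that share libraries.

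Ribosomal protein genes have many processed copies in the genome, and reads from these cannot always be told apart. Of the 81 genes, 50 had at least 50% of the 50-base windows of their transcript also present in a transcript of another gene, with a median of 62.2%. The share reached 98.6% in Rps27. Rpl10 had 92.1%, Rpl35 95.1% and Rpl19 79.3%, whereas Rpl4 had 16.5% and Rps24 19.1%. Rpl35 shares most of its windows with Wdr38, a listed gene on the opposite strand, so its value is uncertain if reads were counted without strand. The level was nearly unrelated to this share (rho 0.15 over 81 genes). How reads with several matches were counted is not given in the sources used here, so the level of any gene with a high share is uncertain.

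**Figure D1:**
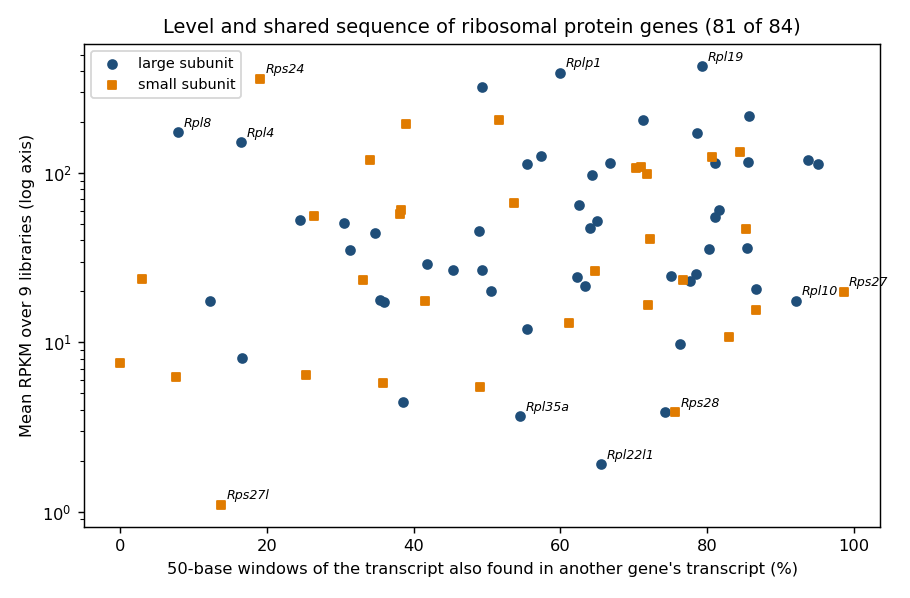
Mean level over the 9 libraries (RPKM, log axis) of the 81 ribosomal protein genes with a protein-coding transcript against the percent of the transcript's 50-base windows that also occur in another gene's transcript; circles are large subunit and squares small subunit genes. Rpl4 and Rpl35a lie far apart in level at low and middle shares, and Rps27 and Rpl10 stand at the right with 19.9 and 17.6 RPKM, so that high and low levels occur along the whole axis.

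The ribosomal protein genes took a larger share of the reads after crush, and a share in between with TPEN. They held 0.836%, 0.834% and 0.821% of the reads in the 3 Ctrl libraries, 0.918%, 0.912% and 0.934% in ONC and 0.871%, 0.894% and 0.871% in TPEN. The 3 groups did not overlap, with ONC highest and Ctrl lowest. Large subunit genes had 0.600% ± 0.00231 (SD, n = 3) of the reads in Ctrl, 0.663% ± 0.00512 in ONC and 0.633% ± 0.00687 in TPEN. Small subunit genes had 0.230% ± 0.00668, 0.258% ± 0.00723 and 0.246% ± 0.00636. The groups did not overlap in either subunit, though the highest TPEN library (0.253%) and the lowest ONC library (0.254%) were close in the small subunit.

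**Figure D2:**
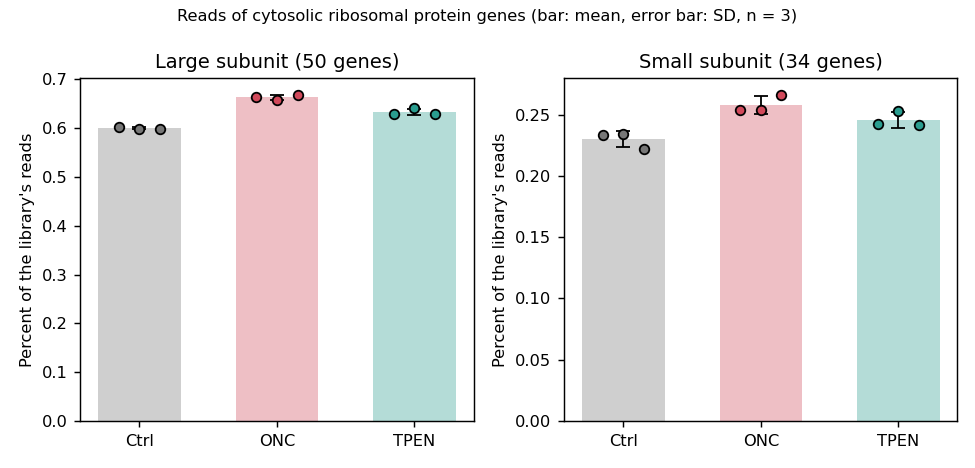
Percent of each library's reads that fell in the 50 large subunit genes (left) and the 34 small subunit genes (right) in Ctrl, ONC and TPEN; points are libraries, bars the mean and error bars the SD (n = 3). In both panels all ONC libraries lie above all TPEN libraries, which lie above all Ctrl libraries.

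The first comparison asked what crush with PBS changed. After crush with PBS, 35 of the 84 ribosomal protein genes (41.7%) passed the test as higher in ONC than in Ctrl and 0 as lower, by limma on log2(RPKM + 0.1) at an adjusted p under 0.05, where 11.7% of the 13566 genes tested were higher and 6.97% lower. At an unadjusted p under 0.05, 49 were higher and 0 lower, and voom on the read numbers gave 41 higher and 0 lower after adjustment. The rise was small. The median log2 fold change was 0.16 (11.7% higher), against 0.017 for all genes, and 0 of the 84 reached a 1.5-fold change, where 4.58% of all genes were called higher and 0.752% lower by at least that much. The fitted change was above 0 in 77 of the 84 (53.5% of all genes), and in 46 (54.8%) every ONC library lay above every Ctrl library, where 20.7% of all genes did so.

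**Figure D3:**
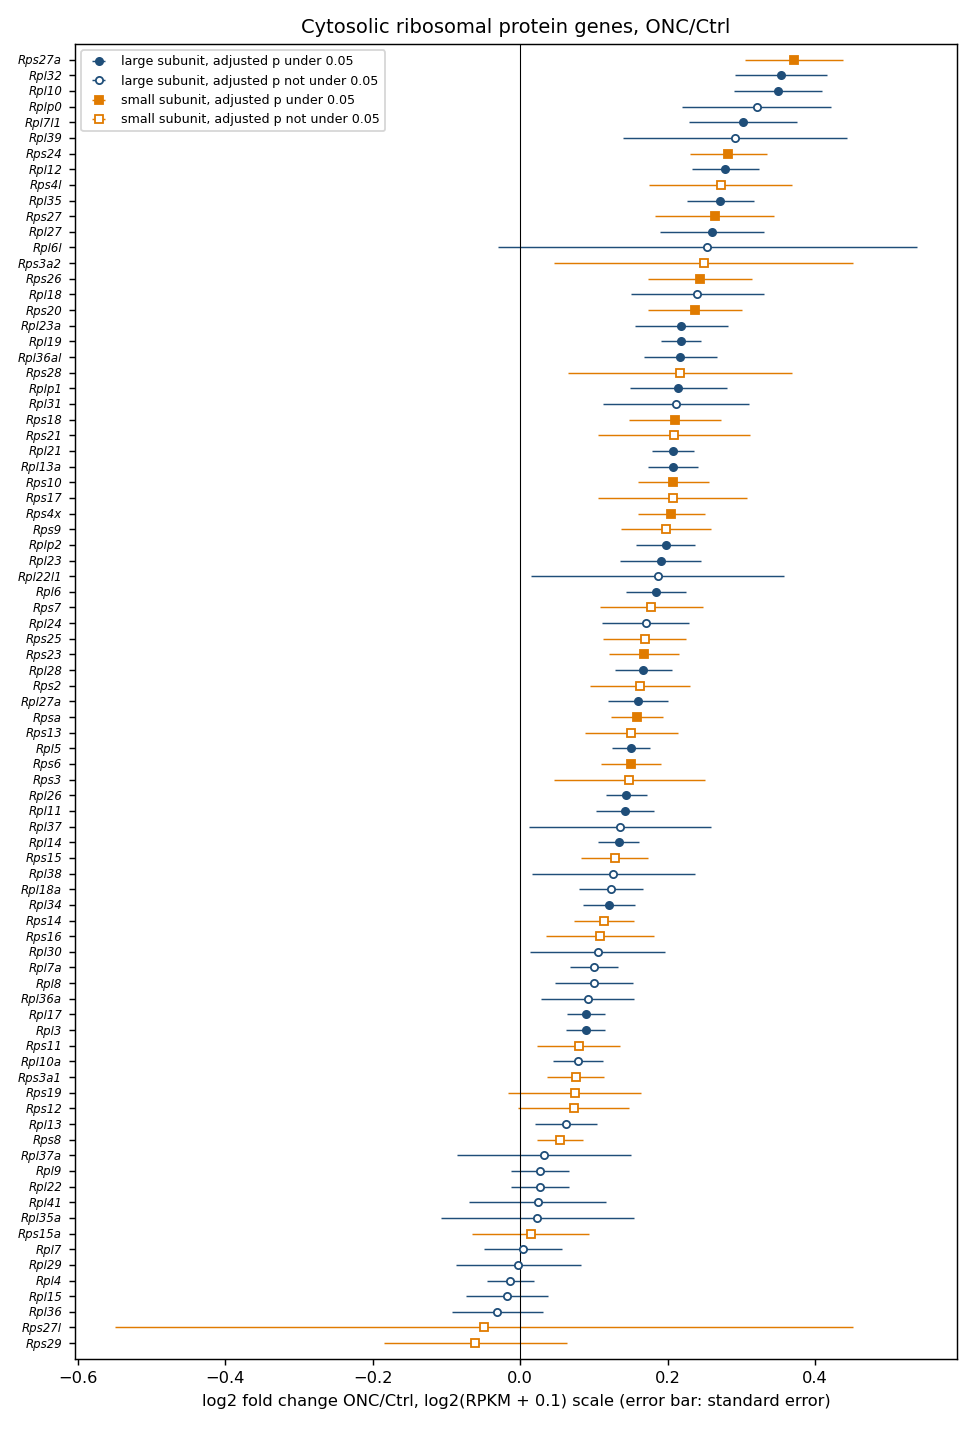
log2 fold change ONC/Ctrl with its standard error for the ribosomal protein genes (all but 1 of the 84) in order of size; blue circles are large subunit and orange squares small subunit genes, filled where the adjusted p was under 0.05. Rps27a stands at the top with 0.37 and Rps29 at the bottom with -0.061, and the 35 filled symbols all lie to the right of 0.

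Rps27a, which encodes a small subunit protein made as a fusion with ubiquitin, had the largest rise in ONC/Ctrl. Its levels were 15.2, 14.4 and 12.8 RPKM in Ctrl, 17.3, 18.1 and 19.5 in ONC and 17.4, 17.7 and 16.8 in TPEN, and the ONC and TPEN libraries all lay above the Ctrl libraries. The log2 fold change was 0.37 ± 0.067 (SE), adjusted p = 0.00365. Fau, which carries a ubiquitin-like fusion to a small subunit protein, has a name outside the rule and did not pass the test in any comparison (0.13, adjusted p = 0.193 in ONC/Ctrl). Rpl32, a protein of the large subunit, was 43.1, 46.6 and 44.4 RPKM in Ctrl, 53.5, 58.3 and 59.7 in ONC and 45.3, 52.4 and 51.7 in TPEN. All its ONC libraries were above all other libraries, with a log2 fold change ONC/Ctrl of 0.35 ± 0.062 (SE), adjusted p = 0.00331. Rpl10, which joins the large subunit late in its maturation, was 14.7, 15.2 and 16.1 RPKM in Ctrl, 20.3, 19.3 and 19.2 in ONC and 17.7, 16.7 and 19.5 in TPEN, with no overlap of Ctrl and ONC (0.35 ± 0.060 (SE), adjusted p = 0.00273). Rps24, a small subunit protein mutated in some families with Diamond-Blackfan anaemia, was 337, 333 and 297 RPKM in Ctrl, 375, 389 and 411 in ONC and 362, 379 and 358 in TPEN. Its lowest ONC library was above its highest Ctrl library (0.28 ± 0.052 (SE), adjusted p = 0.00424), and one Ctrl library lay well below the other two. Rpl7l1, a paralog of Rpl7, was 17.3, 15.1 and 14.9 RPKM in Ctrl, 19.8, 18.4 and 20.0 in ONC and 16.0, 18.1 and 18.5 in TPEN, and its ONC/Ctrl change of 0.30 ± 0.073 (SE), adjusted p = 0.0173 was carried by groups that were apart by 18.4 against 17.3 RPKM at the nearest libraries. Rps27, a zinc-binding protein of the small subunit, had 16.3, 19.7 and 18.7 RPKM in Ctrl, 21.7, 23.2 and 20.8 in ONC and 19.0, 21.4 and 18.2 in TPEN, and its change of 0.26 ± 0.081 (SE), adjusted p = 0.0486 was close to the threshold.

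Of the 35 genes, 17 stayed under the threshold whichever library was left out, and 12 under all 12 other fits. The 11 genes that did both were Rps27a, Rpl32, Rpl10, Rps24, Rpl12, Rpl35, Rpl19, Rpl21, Rpl13a, Rps4x and Rpl5. Rpl19, the gene with the highest level, was 391, 385 and 406 RPKM in Ctrl, 448, 459 and 468 in ONC and 439, 435 and 431 in TPEN and had the smallest adjusted p among the 84 (0.22 ± 0.027 (SE), adjusted p = 0.000364). Its Ctrl, TPEN and ONC libraries followed each other without overlap. The count of 35 fell to 20 after quantile normalization, where 9.30% of all genes were called higher and 10.5% lower, and to 20 once GC and length trends were removed. It was 22 without Ctrl replicate 1, 21 without ONC replicate 1 and 22 without ONC replicate 3.

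The ribosomal stalk recruits the GTPases that drive elongation. Of its 4 genes, Rplp1, Rplp2 and Rpl12 rose in ONC/Ctrl and Rplp2 and Rpl12 fell in TPEN/ONC. The median log2 fold changes of the 4 were 0.25 in ONC/Ctrl, -0.19 in TPEN/ONC and 0.043 in TPEN/Ctrl. The shares of 75% and 50% stood beside 41.7% and 5.95% of the 84 genes and 11.7% and 4.14% of all genes tested. This and the following role groups are small, and their counts were not tested. Rpl12, at the base of the stalk, was 25.2, 23.6 and 26.0 RPKM in Ctrl, 29.5, 30.9 and 30.5 in ONC and 25.05, 26.7 and 24.8 in TPEN. Each ONC library was above all Ctrl and all TPEN libraries, which overlapped each other, with 0.28 ± 0.046 (SE), adjusted p = 0.00222 in ONC/Ctrl and -0.25 ± 0.046 (SE), adjusted p = 0.012 in TPEN/ONC. Rplp2, an acidic protein at the tip of the stalk, was 51.7, 50.3 and 47.7 RPKM in Ctrl, 58.7, 55.0 and 57.9 in ONC and 49.2, 51.2 and 48.3 in TPEN. It showed the same order, with 0.20 ± 0.040 (SE), adjusted p = 0.00734 in ONC/Ctrl and -0.21 ± 0.040 (SE), adjusted p = 0.0147 in TPEN/ONC. Rplp1, its partner, was 349, 345 and 408 RPKM in Ctrl, 444, 435 and 399 in ONC and 397, 369 and 375 in TPEN, and Ctrl replicate 3 reached into the range of ONC (0.21 ± 0.066 (SE), adjusted p = 0.0484). Rplp0, to which both bind, was 22.8, 24.6 and 30.7 RPKM in Ctrl, 34.6, 30.2 and 32.2 in ONC and 30.4, 26.6 and 28.8 in TPEN. Ctrl replicate 3 overlapped ONC here too, and neither comparison passed the test (0.32 ± 0.10 (SE), adjusted p = 0.0556 in ONC/Ctrl). Rpl12 overlaps Snora65 and, on the opposite strand, Lrsam1, and Rplp2 shares 65.1% of its windows with other transcripts.

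Rpl5 and Rpl11, which bind 5S rRNA and can also hold back MDM2, both rose in ONC/Ctrl, as did 41.7% of the 84 genes and 11.7% of all genes tested. Rpl5 was 111, 112 and 113 RPKM in Ctrl, 125, 127 and 122 in ONC and 122, 118 and 122 in TPEN, with a tight spread within each group (0.15 ± 0.026 (SE), adjusted p = 0.00295). Rpl11 was 22.2, 23.4 and 22.6 RPKM in Ctrl, 25.2, 24.6 and 25.4 in ONC and 25.3, 25.5 and 23.8 in TPEN (0.14 ± 0.039 (SE), adjusted p = 0.0301). ONC lay above Ctrl without overlap in both genes, and neither passed the test in TPEN/ONC (-0.044 and -0.013, with adjusted p of 0.373 and 0.892).

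Of 9 genes whose proteins line or ring the peptide exit tunnel, 4 (44.4%) rose in ONC/Ctrl, namely Rpl35, Rpl23a, Rpl19 and Rpl17. The rest did not pass the test. The share was near the 41.7% of all 84 genes, where 11.7% of all genes tested rose. Rpl35, at the outer rim of the tunnel where factors dock, was 105, 103 and 100.2 RPKM in Ctrl, 128, 119 and 126 in ONC and 103, 112 and 115 in TPEN (0.27 ± 0.046 (SE), adjusted p = 0.00248). Its ONC libraries lay above all others, and its TPEN/ONC change of -0.17 ± 0.046 (SE), adjusted p = 0.0518 fell just short of the threshold. Rpl4, which reaches into the tunnel wall, was 149, 147 and 156 RPKM in Ctrl, 151, 154 and 144 in ONC and 160.0, 154 and 157 in TPEN. Its groups overlapped between Ctrl and ONC (-0.013 ± 0.032 (SE), adjusted p = 0.826), whereas every TPEN library was above the highest ONC library, at the nearest by less than 1 RPKM. Rpl39, a small protein within the tunnel, had a fitted change of 0.29 with an SE of 0.15 (adjusted p = 0.226), so that a change of the size seen in Rpl32 could not be detected there.

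Among 7 small subunit genes along the mRNA path, from entry and decoding to exit, Rps23 and Rps26 rose in ONC/Ctrl. The share of 28.6% stood beside 41.7% of the 84 genes and 11.7% of all genes tested. Rps23, whose protein sits beside the decoding site, was 198, 193 and 185 RPKM in Ctrl, 214, 206 and 228 in ONC and 195, 215 and 209 in TPEN (0.17 ± 0.048 (SE), adjusted p = 0.0362). Rps26, near the mRNA exit, was 54.7, 55.4 and 61.2 RPKM in Ctrl, 72.8, 69.7 and 60.7 in ONC and 60.3, 57.6 and 54.5 in TPEN (0.24 ± 0.071 (SE), adjusted p = 0.0394), and one Ctrl and one ONC library overlapped. The other 5 genes, Rps2, Rps3, Rps9, Rps15 and Rps28, had log2 fold changes from 0.13 to 0.22 and did not pass the test. None of the 7 passed it in TPEN/ONC, where all 7 fits were below 0 with a median of -0.093.

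Minor paralogs were listed for 5 genes, and 2 of them (40%) rose in ONC/Ctrl, Rpl7l1 and Rpl36al. The share was near the 41.7% of all 84 genes, where 11.7% of all genes tested rose. Rpl36al, which encodes a protein almost identical to that of Rpl36a, was 19.9, 19.3 and 19.4 RPKM in Ctrl, 24.2, 22.1 and 22.0 in ONC and 23.4, 23.0 and 21.3 in TPEN. All its ONC and TPEN libraries were above all Ctrl libraries (0.22 ± 0.049 (SE), adjusted p = 0.013 in ONC/Ctrl). The change of Rpl36a itself was 0.091 (adjusted p = 0.367), and that of Rpl7, the parent of Rpl7l1, 0.0037 (adjusted p = 0.971). The difference between paralog and parent was not tested. Rpl7 was 119.9, 116 and 108 RPKM in Ctrl, 114, 109 and 121 in ONC and 109.8, 122 and 118 in TPEN, with overlap of all 3 groups. Rps27l, a paralog of Rps27 that p53 is known to induce, had only 8 to 40 reads in a library. It was 0.984, 1.54 and 0.977 RPKM in Ctrl, 0.533, 2.13 and 1.12 in ONC and 0.491, 0.496 and 1.60 in TPEN, and its spread within each group exceeded any difference between them (-0.049 ± 0.50 (SE), adjusted p = 0.959). Of the parents of the 5 paralogs, Rps4x and Rps27 rose, and Rpl7, Rpl22 and Rpl36a did not pass the test. A wider list of 11 parents also held genes with no paralog among the 5, and of those Rpl3, Rpl10, Rpl26 and Rpl34 rose.

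Of 12 genes that are mutated in Diamond-Blackfan anaemia, an inherited failure of red cell formation, 6 (50%) rose in ONC/Ctrl. Of the 84 genes 41.7% rose, and of all genes tested 11.7%. The 6 were Rps24, Rps10, Rps26, Rpl5, Rpl11 and Rpl26, with log2 fold changes from 0.14 to 0.28. Rps19, the gene most often mutated in the disease, was 6.94, 5.83 and 6.36 RPKM in Ctrl, 6.71, 6.63 and 6.76 in ONC and 6.02, 7.09 and 5.66 in TPEN and did not pass the test (0.074 ± 0.090 (SE), adjusted p = 0.631). Rps29 and Rpl15 had fits below 0 in ONC/Ctrl (-0.061 and -0.018, adjusted p = 0.788 and 0.865). Fits below 0 were also found for Rpl4, Rpl36 (-0.031), Rpl29 (-0.0023) and Rps27l (-0.049), and none passed the test.

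Among 7 genes known from signalling or from work on specialised ribosomes, Rpl10, Rpl13a, Rpsa and Rps6 rose in ONC/Ctrl. The share of 57.1% stood beside 41.7% of the 84 genes and 11.7% of all genes tested. Rps6, the substrate of S6 kinase downstream of mTORC1, was 124, 129 and 115 RPKM in Ctrl, 136, 134 and 139.5 in ONC and 139, 140.1 and 136 in TPEN. Both groups after crush lay above Ctrl without overlap, with 0.15 ± 0.040 (SE), adjusted p = 0.0278 in ONC/Ctrl and 0.17 ± 0.040 (SE), adjusted p = 0.021 in TPEN/Ctrl. Rpl13a, which takes part in translational silencing in myeloid cells, was 118, 116 and 116 RPKM in Ctrl, 134, 136 and 134 in ONC and 128, 129.6 and 119 in TPEN (0.21 ± 0.034 (SE), adjusted p = 0.00218). Its Ctrl libraries lay below all others, and ONC lay above TPEN. Rpl38, Rpl10a and Rps25, each reported to favour the translation of some mRNAs, had 0.13, 0.079 and 0.17 and did not pass the test.

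The second comparison asked what TPEN changed after crush. In TPEN/ONC, 5 of the 84 genes (5.95%) were downregulated and 0 upregulated, against 4.14% and 3.24% of all genes tested, so the share called was near that of all genes. limma at an unadjusted p under 0.05 gave 19 lower and 0 higher, and voom 11 lower and 0 higher after adjustment. Of the 84 fits, 17 were above 0 (47.0% of all genes), and the median log2 fold change was -0.071, against -0.011 for all genes. None of the 84 was called with a 1.5-fold change, against 0.818% of all genes higher and 1.21% lower. In 22 genes (26.2%) every TPEN library lay below every ONC library, where 15.6% of all genes did so.

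The 5 genes were Rpl12 and Rplp2 of the stalk, described above, and Rps10, Rpsa and Rpl21. Rps10, a protein at the beak of the small subunit, was 25.4, 24.6 and 25.4 RPKM in Ctrl, 28.8, 30.5 and 27.9 in ONC and 26.7, 25.2 and 23.9 in TPEN (-0.20 ± 0.048 (SE), adjusted p = 0.0358). Its ONC libraries lay above all Ctrl and all TPEN libraries. Rpsa, a small subunit protein also known as the laminin receptor, was 64.3, 63.2 and 65.9 RPKM in Ctrl, 70.6, 72.5 and 72.8 in ONC and 66.7, 61.8 and 62.4 in TPEN (-0.18 ± 0.035 (SE), adjusted p = 0.0149). Again ONC lay above both other groups, and the ONC/Ctrl change was 0.16 ± 0.035 (SE), adjusted p = 0.011. Rpl21, a large subunit protein whose transcript shares windows with 82 other genes of the annotation, was 109, 108 and 103 RPKM in Ctrl, 123, 124 and 122 in ONC and 109.9, 113 and 109.6 in TPEN (-0.15 ± 0.028 (SE), adjusted p = 0.0126). All 5 had also risen in ONC/Ctrl, and the comparisons share the ONC libraries. Their TPEN/Ctrl changes were 0.033 for Rpl12, -0.0094 for Rplp2, 0.0078 for Rps10, -0.020 for Rpsa and 0.057 for Rpl21, and none passed the test. The count of 5 fell to 3 without ONC replicate 1, 2 without ONC replicate 2 and 1 without TPEN replicate 3. Of these calls, 3, 1 and 0 were among the 5 genes named, so without TPEN replicate 3 none of the 5 was called. None of the 5 was called with every library left out in turn, and Rpl21 alone was called in all 12 other fits.

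**Figure D4:**
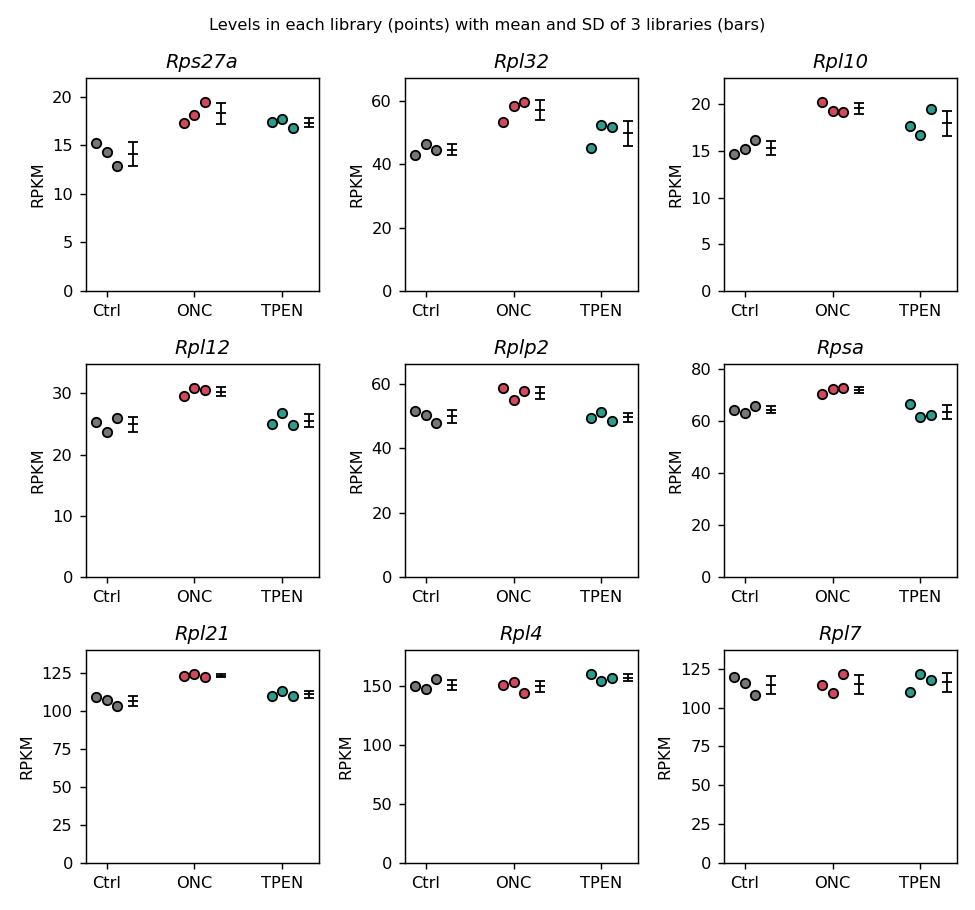
Levels (RPKM, axes from 0) of 9 ribosomal protein genes in each library of Ctrl, ONC and TPEN, with the mean and SD of each group's 3 libraries beside the points. Rpl12, Rplp2, Rpsa and Rpl21 are highest in ONC and overlap or nearly overlap between Ctrl and TPEN, Rps27a is raised in ONC and TPEN, and in Rpl4 and Rpl7 Ctrl and ONC overlap.

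The third comparison set retinas with crush and TPEN against uninjured ones. In TPEN/Ctrl, 9 of the 84 genes (10.7%) were upregulated and 0 downregulated, where 8.36% of all genes were upregulated and 5.01% downregulated. limma at an unadjusted p under 0.05 gave 21 higher and 1 lower (Rpl37a), and voom 13 higher and 0 lower after adjustment. The median was 0.079, against 0.012 for all genes, with 68 fits above 0 (53.2% of all genes), and no gene was called with a 1.5-fold change (3.45% of all genes higher and 0.457% lower). Every TPEN library lay above every Ctrl library in 23 genes (27.4%), against 18.1% of all genes. The 9 genes were Rps27a (0.29), Rps20 (0.24), Rpl10 (0.22), Rpl36al (0.21), Rps24 (0.19), Rps6 (0.17), Rpl27a (0.17), Rpl19 (0.14) and Rpl5 (0.11). Rps20, a protein of the small subunit's head, was 5.30, 5.57 and 5.71 RPKM in Ctrl, 6.22, 6.42 and 6.98 in ONC and 6.32, 6.48 and 6.87 in TPEN (0.24 ± 0.064 (SE), adjusted p = 0.0353). Its Ctrl libraries lay below all others, and ONC and TPEN overlapped. Rpl27a was 16.4, 16.0 and 15.8 RPKM in Ctrl, 17.4, 17.9 and 18.7 in ONC and 17.8, 18.6 and 17.8 in TPEN and had the same order (0.17 ± 0.041 (SE), adjusted p = 0.0239). Rpl37a, a zinc-binding large subunit protein, was 5.22, 4.70 and 4.27 RPKM in Ctrl, 5.03, 4.11 and 5.43 in ONC and 3.55, 4.15 and 3.52 in TPEN. Its TPEN libraries lay below all Ctrl libraries, but the change of -0.33 ± 0.12 (SE), adjusted p = 0.101 did not pass the test. The count of 9 was 4 once GC and length trends were removed and 4 with only the 6 libraries compared. It was 5 without Ctrl replicate 1, 3 without Ctrl replicate 2, 3 without TPEN replicate 1 and 3 without TPEN replicate 2. Of the 3 called without TPEN replicate 1, only 1 was among the 9. Rpl19 alone was called with every library left out in turn.

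The large and small subunits were compared next, without a test. In ONC/Ctrl, 24 of 50 large (48%) and 11 of 34 small subunit genes (32.4%) rose, with medians of 0.15 and 0.17, against 11.7% of all genes tested. In TPEN/ONC, 3 large (6%) and 2 small subunit genes (5.88%) fell, with medians of -0.058 and -0.084, against 4.14% of all genes. In TPEN/Ctrl 5 (10%) and 4 (11.8%) rose, with medians of 0.079 and 0.072, against 8.36% of all genes. In both comparisons with TPEN the shares called were thus near those of all genes. The summed RPKM of the large subunit genes was 1.96 ± 0.0749 (SD, n = 3) times that of the small subunit genes in Ctrl, 1.93 ± 0.0404 in ONC and 1.93 ± 0.0332 in TPEN. The ratio ranged from 1.91 to 2.05 in Ctrl, 1.89 to 1.96 in ONC and 1.90 to 1.96 in TPEN, so the groups overlapped. Per library, the median deviation of large minus that of small subunit genes from their means lay between -0.015 and 0.022 on the log2 scale over the 9 libraries. That difference was -0.0031 ± 0.0114 (SD, n = 3) in Ctrl, 0.012 ± 0.0115 in ONC and -0.0065 ± 0.00791 in TPEN. No group mean lay much further from 0 than its SD, but 0 here is each gene's mean over all 9 libraries. By this measure ONC stood above Ctrl and TPEN below ONC. The medians of the fitted changes gave the opposite directions, with large minus small at -0.018 in ONC/Ctrl and 0.027 in TPEN/ONC. The direction of so small a difference thus depended on the measure.

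**Figure D5:**
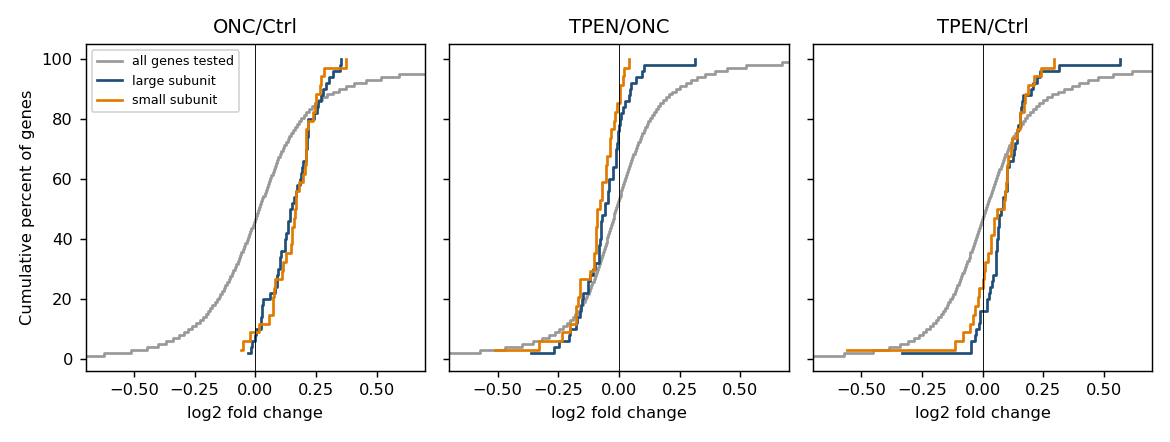
Cumulative percent of genes by log2 fold change in ONC/Ctrl, TPEN/ONC and TPEN/Ctrl for the 50 large subunit genes, the 34 small subunit genes and all 13566 genes tested (axis cut at 0.7 on both sides). Both subunits lie to the right of all genes in ONC/Ctrl (medians 0.15 and 0.17 against 0.017) and slightly to the left in TPEN/ONC (-0.058 and -0.084 against -0.011).

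Genes with many and with few shared windows were both among those that rose. Of the 50 genes with at least 50% of their windows shared, 25 rose in ONC/Ctrl with a median of 0.16, and of the 31 below 50%, 10 rose with a median of 0.13. The log2 fold change ONC/Ctrl had a rho of 0.048 with the share of windows, -0.083 with coding length and -0.016 with the mean level, as descriptions across genes. Another listed gene overlapped 18 of the 84, among them Rpl12, Rpl32, Rpl35, Rpl19 and Rpl5, and of the other 66, 25 rose in ONC/Ctrl, 4 fell in TPEN/ONC and 7 rose in TPEN/Ctrl. The kit kept the strand, but the sources used here do not say whether the counting used it. Within each group, the libraries differed by base composition across the ribosomal protein genes. Across 81 of the genes, the deviation from the group mean had a rho with GC content of 0.24 in Ctrl replicate 3, -0.33 in ONC replicate 3 and 0.25 in TPEN replicate 1, and over all genes of 0.24, -0.061 and 0.080. Between groups, the rho of the log2 fold change with GC content was -0.057 in ONC/Ctrl, -0.22 in TPEN/ONC and -0.36 in TPEN/Ctrl. Of the 30 listed ribosomal protein pseudogenes, 3 rose and 1 fell in ONC/Ctrl, with a median of 0.15, and 1 fell in TPEN/ONC. For all genes tested, ONC/Ctrl had 11.7% called up and 6.97% called down, with a median of 0.017. TPEN/ONC had 4.14% of them called down. The share of calls was thus no larger among the pseudogenes, though their ONC/Ctrl median was higher. The most abundant was Rpl21-ps15 at 201, 187 and 218 RPKM in Ctrl, 231, 226 and 209.9 in ONC and 211, 180.4 and 199 in TPEN, above the level of Rpl21 itself, and whether its reads came from Rpl21 was not tested. Rpl17-ps10 rose in ONC/Ctrl (0.19 ± 0.037 (SE), adjusted p = 0.00517) and fell in TPEN/ONC (-0.20 ± 0.037 (SE), adjusted p = 0.0114), while Rps6-ps4 did not pass the test in either.

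Other genes of the translation machinery were counted in the same way, beside the 11.7% of all genes tested that were higher and 6.97% lower in ONC/Ctrl and the 4.14% lower in TPEN/ONC. Of 38 initiation factor genes, 13 rose and 1 fell in ONC/Ctrl, and 4 fell in TPEN/ONC. The largest rises were those of Eif4e3 (0.57, adjusted p = 0.00843), a relative of the cap-binding protein, Eif1a (0.48, adjusted p = 0.000629) and Eif2s2 (0.25, adjusted p = 0.00476), the eIF2 beta subunit. The gene that fell was the Y-linked Eif2s3y (-0.26, adjusted p = 0.00624). The study used mice of both sexes and the labels give no sex for the libraries, so the part of sex in this change was not tested. Of 14 genes on the elongation and termination list, 6 rose in ONC/Ctrl, with Eef1b2 (0.29, adjusted p = 0.000106), Eef1a2 (0.28, adjusted p = 0.00661) and Eef1e1 (0.27, adjusted p = 0.0212) first. Despite its name, Eef1e1 does not encode an elongation or termination factor, but it is counted in this list. Eef1b2, which reloads eEF1A with GTP, was the one that fell in TPEN/ONC (-0.16, adjusted p = 0.0133). Of 29 other TOP mRNAs tested, 8 rose in ONC/Ctrl and 2 fell in TPEN/ONC, and 12 of the 29 fits in TPEN/ONC were above 0. Vim, the intermediate filament of glia, moved most in both (1.59 and -0.38), and Npm1, a nucleolar chaperone, rose by 0.21. The medians of these lists were 0.13, 0.19 and 0.10 in ONC/Ctrl and -0.062, -0.041 and -0.021 in TPEN/ONC.

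Of 80 ribosome biogenesis genes, 28 rose and 0 fell in ONC/Ctrl, with a median of 0.14, and 15 fell and 0 rose in TPEN/ONC, with a median of -0.092. Among all genes tested 11.7% rose in ONC/Ctrl and 4.14% fell in TPEN/ONC. The genes with the largest rise were Bop1 (0.41, adjusted p = 0.00804), which processes the large subunit's rRNA, Nhp2 (0.40, adjusted p = 0.0473), of the H/ACA complexes, and Rrp12 (0.40, adjusted p = 0.00075), which serves the export of pre-ribosomes. In TPEN/ONC the largest falls were those of Rrp12 (-0.42, adjusted p = 0.00188), Grwd1 (-0.40, adjusted p = 0.0262) and Bop1 (-0.39, adjusted p = 0.023). Of 28 mTOR and TOP regulators, 4 rose and 2 fell in ONC/Ctrl, with a median of 0.038, and these shares were near those of all genes tested (11.7% and 6.97%). The genes that rose included Eif4ebp1 (1.37, adjusted p = 0.0156), the translational repressor that mTORC1 inactivates, Larp1b (0.52, adjusted p = 0.00711) and Akt1 (0.47, adjusted p = 0.0292), with Rictor (-0.22, adjusted p = 0.0076) lower. Eif4ebp1 was 0.284, 0.256 and 0.635 RPKM in Ctrl, 1.35, 1.03 and 0.952 in ONC and 0.228, 0.369 and 0.548 in TPEN, and it fell in TPEN/ONC (-1.37, adjusted p = 0.0329) where Rictor rose (0.28, adjusted p = 0.00676). Most Ctrl and TPEN values of Eif4ebp1 lay under the filter of 0.5 RPKM, so it was tested only through its level in ONC. Of 11 ribosome quality control genes, Edf1 and Usp16 rose in ONC/Ctrl (0.12 and 0.13), and Zfp598, a ligase that marks collided ribosomes, fell in TPEN/ONC (-0.23). Of the 10 Rps6k kinases left out by the rule, Rps6ka1 (1.35) and Rps6ka2 (0.23) rose in ONC/Ctrl, and Rps6ka2 fell in TPEN/ONC (-0.16).

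Markers of other cells differed between the groups in several orders. For the counts below, 11.7% of all genes tested were higher and 6.97% lower in ONC/Ctrl, and 3.24% were higher and 4.14% lower in TPEN/ONC. All 13 tested microglia and macrophage markers rose in ONC/Ctrl and 8 fell in TPEN/ONC, although the gate excluded CD48+ cells. The filter took the mean over all 9 libraries, so a marker low in Ctrl could pass it through ONC. The count of 13 is therefore partly set by the filter. The 15 microglia and macrophage markers that were listed summed to 5.12 to 5.79 RPKM in Ctrl, 65.9 to 69.9 in ONC and 28.7 to 29.0 in TPEN, with Tyrobp and Ccr2 not in the table. The summed astrocyte markers, at 5.80 to 6.51, 27.5 to 28.6 and 17.8 to 20.5 RPKM, were likewise highest in ONC and lowest in Ctrl, as the ribosomal protein genes were. Of these 6 markers 5 were in the table and 3 passed the filter, of which 2 rose in ONC/Ctrl and 1 fell in TPEN/ONC. Proliferation markers summed to 27.8 to 28.8, 31.6 to 34.5 and 30.0 to 32.3 RPKM, with overlap of ONC and TPEN. The rod markers had the reverse order, as given above, and the bipolar markers were also lowest in ONC (86.3 to 88.4, 78.8 to 79.6 and 82.3 to 86.6 RPKM). The cone markers were highest in TPEN (138 to 146, 123 to 130.1 and 213 to 217 RPKM), and 8 of 9 rose in TPEN/ONC with a median log2 fold change of 0.78. Of 6 tested amacrine markers, 4 rose and 0 fell in TPEN/ONC. The summed Muller glia markers were highest in ONC and lowest in TPEN (563 to 582, 625 to 638 and 495 to 506 RPKM). Most single markers did not follow the sum in ONC/Ctrl, where 2 of the 10 rose and 4 fell. Their median there was -0.072, with 4 fits above 0. Summed endothelial and pericyte markers were lowest in Ctrl and highest in TPEN, but only 4 of 9 were in the table and 3 passed the filter. None of them passed the test in TPEN/ONC. Of the 8 neutrophil markers 1 was listed and it rose in ONC/Ctrl and fell in TPEN/ONC. It stood at 0.124 to 0.223 RPKM in Ctrl, 0.989 to 1.13 in ONC and 0.25 to 0.511 in TPEN, so it passed the filter through ONC. Of 6 fibroblast markers 1 was listed and it did not pass the filter. None of the 8 T cell markers was in the table. The part of these cells in the changes of the ribosomal protein genes was not tested.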

How the data were processed

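RNA of cells sorted as RGCs was sequenced in 9 libraries, 3 each of Ctrl, ONC and TPEN, after stranded mRNA library preparation. Per the labels, the reads were trimmed with Trimmomatic 0.36 and mapped to GRCm38 (with STAR, by the study's methods), and the counting program and annotation are not given in the sources used here. The authors deposited 1 table of RPKM values for 15228 genes, with exon lengths and coordinates. Columns with log2 fold changes and p-values from edgeR, which the authors deposited beside them for each pair of groups, were not used. Each length equalled the joined listed exons, and every RPKM value times length was a whole number of reads within 0.01 of a read once scaled by the library. The totals that follow were 19946993 to 23109754, and 0 reads allow up to 3 reads (0.130 to 0.150 RPM), for counting error only.

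Values were taken as log2(RPKM + 0.1) for 13566 genes (mean RPKM of 0.5 or more), fitted with limma 3.58.1 (R 4.3.3, trended eBayes, 1 coefficient for each group) and adjusted over all genes by the Benjamini-Hochberg method, with a threshold of 0.05. Fold changes on this scale understate changes of low genes. The ribosomal protein genes and all lists were chosen with earlier results of these data known. The genes named are, for each comparison and direction, up to 8 with the largest called change, the 3 highest and 3 lowest of each subunit, members of the role groups, Fau, up to 3 genes per direction of each pathway list, and 3 pseudogenes. A few others were named after their values were seen, among them genes with fits below 0, Rpl37a and those with overlaps or shared windows. A few genes that enter the counts are not reported here by name. Lists were described by counts and medians without a test. Windows of 50 bases were compared between GENCODE transcripts. Start sites came from RefSeq (GRCm38.p6). The fit was checked on simulated data. Alternatives changed the normalization, filter, pseudocount, libraries fitted, replicate block, and trends with length and GC, or used voom on the whole reads.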

Additional observations from a re-analysis of the deposited data

How the results depend on the processing

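Every alternative kept the direction of all called changes. For the single calls of all ribosomal protein genes called in any comparison, 433 values from other fits stayed past the threshold and 155 did not. With 1 library left out, 298 stayed and 143 did not. The members called in ONC/Ctrl (35) became 20 with quantile normalization, 23 with median centring, 23 with the length trend removed and 20 with GC and length trends removed, and the removal of the GC and length trends was chosen after seeing the data. The median log2 fold change of 0.16 became 0.11, 0.14, 0.13 and 0.12 under these 4 settings. Quantile normalization moved the median of TPEN/ONC from -0.071 to -0.037. The median of TPEN/Ctrl, 0.079, became 0.058 without the length trend and 0.049 without GC and length trends. The 5 calls of TPEN/ONC became 11 with voom on the whole reads, and the 9 of TPEN/Ctrl became 4 with only the 6 libraries compared and 4 without GC and length trends. The cause of these moves was not tested.

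The median of the large minus that of the small subunit genes was -0.018 in ONC/Ctrl, 0.027 in TPEN/ONC and 0.0062 in TPEN/Ctrl. It became -0.031 in ONC/Ctrl and 0.022 in TPEN/Ctrl without GC and length trends, and 0.021 in TPEN/Ctrl with quantile normalization. Among genes that no other gene overlaps it was -0.036, 0.051 and -0.0060.

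With 1 library left out in turn, the calls ranged from 21 to 33 in ONC/Ctrl, from 1 to 5 in TPEN/ONC and from 3 to 9 in TPEN/Ctrl. The medians ranged from 0.13 to 0.17, from -0.081 to -0.057 and from 0.057 to 0.087, and the large minus small differences from -0.030 to 0.0014, from 0.0085 to 0.040 and from -0.0054 to 0.026. A fit that left a group with 2 libraries used the spread shared by all groups.

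The replicate numbers are not known to pair the libraries. Deviations of libraries with the same number had correlations between -0.062 and 0.027, so pairing was not used. A replicate block in the fit gave 27, 5 and 7 calls in ONC/Ctrl, TPEN/ONC and TPEN/Ctrl. Combined with removal of the length trend, it gave 16 calls in ONC/Ctrl and 2 in TPEN/Ctrl, with medians of 0.13 and 0.058. With the block and both trends removed, 15, 2 and 3 were called, with medians of 0.12 in ONC/Ctrl and 0.049 in TPEN/Ctrl and large minus small differences of -0.031 and 0.022.

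The 84 genes had a median of 1086.5 reads in their lowest library. Rps27l, with 8 reads in its lowest library, is limited by counting.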
